A study of Homo sapiens with 10 samples.

Results

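DNA replication and S-phase genes are a set of 44 genes named by their symbols, out of 11963 genes with probe sets of 1 symbol on the array. The set covers origin licensing, helicase activation, the sliding clamp and its loader, the polymerases, the single-strand binding protein, Okazaki fragment processing, nucleotide supply, topoisomerases and the switch into S phase. The symbols were found in the platform annotation on 69 probe sets, each a group of short oligonucleotides; some are marked by their ID suffix as matching several transcripts. Of these, 50 probe sets of 36 genes were bright enough to be tested.

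RNA came from MOLT-4, an established human T-cell acute lymphoblastic leukaemia line, on 10 Affymetrix arrays with 2 arrays at each of 5 times: 0 h, 0.5 h, 1 h, 3 h and 6 h. All 10 labels, those of 0 h included, give the agents as 10 ug/mL MABL, an antibody against CD47, and 50 ug/mL GAM, which is not spelled out. The design compares each later time with 0 h. No time-matched untreated cells were analysed here, so MABL, GAM, time in culture and handling cannot be told apart.

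In a dividing cell, ORC, CDC6 and CDT1 load the MCM2 to MCM7 ring on origins in G1, and CDC45 and the GINS complex turn that ring into the moving helicase in S phase. Primase with DNA polymerase alpha starts each strand, RFC loads the PCNA clamp that holds the other polymerases, RPA coats the single strands, and ribonucleotide reductase supplies the deoxynucleotides. Transcription of many of these genes is periodic and driven by E2F factors under RB control. The labels mention no synchronisation of the cells, and in RNA of whole cultures fewer cells in S phase and less RNA per cell cannot be told apart.

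Levels are the square roots of the deposited scores, read as log2 expression. That scale is a reading of the values and not a statement of the submitters, so each size below depends on it. A probe set was tested where its level was at least 5 (a deposited score of 25) on at least 2 of the 10 arrays, and a change was called at an adjusted p under 0.05 by limma over all 4276 tested probe sets. Per gene, the brightest tested probe set is described unless another is named. The labels do not say whether the 2 arrays of a time are of separate cultures; the p-values speak of the spread among these arrays alone, and that spread may be technical. Of the T-lineage markers with a probe set, 11 of 12 passed the level of 5, and of the markers of other blood cells 0 of 7 did; CD7 was the T-lineage marker below it.

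Array-wide values moved with time as well. The mean 18S ribosomal RNA levels of the 5 times, in order from 0 h to 6 h, were 9.03 ± 0.88, 10.44 ± 0.34, 10.68 ± 0.64, 11.20 ± 0.65 and 11.67 ± 0.49 (SD, n = 2 each). The spike-in controls lay at 10.00, 10.27, 10.25, 10.76 and 10.63 in the same order. Relative to 0 h, the median level of an array over the tested probe sets changed by -0.13, -0.29, -0.31 and -0.25 over the 4 later times. Changes are given on the deposited scaling, and values with equal array medians stand beside the counts. Of 83 called changes of members against 0 h, 64 were also called with equal array medians, 2 with the 18S level as a covariate and 17 with the spike-in level as a covariate. Since 18S and spike-in levels moved with time, their part and that of time cannot be told apart.

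The members were called lower than at 0 h far more often than higher, as were all tested probe sets. Of the 50 tested probe sets, 12 were called lower and 0 higher at 0.5 h, where 15.1% of all tested probe sets were lower and 1.92% higher. At 1 h, 18 were lower (24.2% of all tested) and 0 higher (4.14%). At 3 h, 26 were lower (26.4%) and 0 higher (2.53%). At 6 h, 26 were lower (21.6%) and 1, of PRIM1, was higher (4.07%). These counts hold 3 probe sets that reached the level for testing at 1 time alone and so had to differ. They were the second ones of RFC3 and RPA1 at 0 h, among the lower calls, and PRIM1 at 6 h. POLE2, POLQ and the dimmest probe set of DUT reached it on both 0 h arrays and on 1 later array each. The 0 h level alone would thus have passed them, and their lower calls are counted too. The members' share of lower calls was thus 24%, 36%, 52% and 52% at the 4 times. At an unadjusted p under 0.05, 18, 21, 33 and 30 of the 50 changes passed in either direction. The share of all tested probe sets passing there was not counted, so these numbers are no result about the members. Over all times together, 35 of the 50 differed by the F test, beside 39.6% of all tested probe sets.

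Over the 4 times the median change of the member probe sets was -0.05, -0.21, -0.47 and -0.53, beside 0.01, -0.03, -0.15 and -0.14 over all tested probe sets. With equal array medians, the members' medians were 0.08, 0.08, -0.16 and -0.28 beside 0.14, 0.26, 0.17 and 0.11, so the sign at 0.5 h and 1 h turned with the scaling and that at 3 h and 6 h did not. Under that scaling 11, 14, 21 and 19 member probe sets were lower at the 4 times (15.3%, 19.5%, 17.8% and 14.1% of all tested) and 3, 10, 3 and 3 were higher (6.90%, 32.5%, 23.1% and 14.3%). By the submitters' fold rule, with both replicates under 0.5 times the 0 h mean, 7, 11, 9 and 5 member probe sets were lower (5.99%, 11.4%, 6.69% and 4.09% of all tested), and 0 were above 2 times it at any time (0.117% to 0.935% of all tested).

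Between 1 h and 6 h some members rose, others fell, and 21 of the 36 tested genes had no call by their brightest probe set. Of the 50 probe sets, 9 were higher at 6 h than at 1 h (12.2% of all tested) and 12 were lower (11.7%); with equal array medians 10 were higher (14.3%) and 14 lower (16.1%). Lower at 1 h than at 0 h and then higher at 6 h than at 1 h were 8 (10.1% of all tested). By the brightest probe set of each gene, 8 genes were higher and 7 lower, beside 12.1% and 12.2% of 2819 genes tested. Both counts of higher calls hold PRIM1, which reached the level of 5 at 6 h alone and so was tested through that time. They also hold POLE2, whose call was lost with values under 5 set to 5. The 8 genes higher at 6 h than at 1 h were RRM1 by 2.46, MCM6 by 1.62, RFC4 by 1.27, RFC3 by 1.26, POLE2 by 1.20, PRIM1 by 1.02, GMNN by 0.93 and RPA1 by 0.45; of these, RFC3 and RPA1 were still called lower at 6 h than at 0 h. The 7 genes lower at 6 h than at 1 h had changes of -1.37 for RRM2, -0.91 for MCM4, -0.84 for CDC25A, -0.82 for RPA2, -0.79 for GINS1, -0.76 for DUT and -0.36 for TYMS; at 1 h, GINS1, DUT and TYMS had changes of 0.16, 0.17 and 0.07 from 0 h. MCM6 and MCM4, whose calls went opposite ways, belong to 1 helicase ring, and the differences between them were not tested. So did the calls of RRM1 and RRM2 of 1 enzyme, but the second bright probe set of RRM2 changed by 0.04 (adjusted p = 0.892). The opposite calls of RPA1 and RPA2 of 1 trimer were each lost without 1 of several arrays, and that of RPA1 was 0.04 with values under 5 set to 5 (adjusted p = 0.821).

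**Figure D1:**
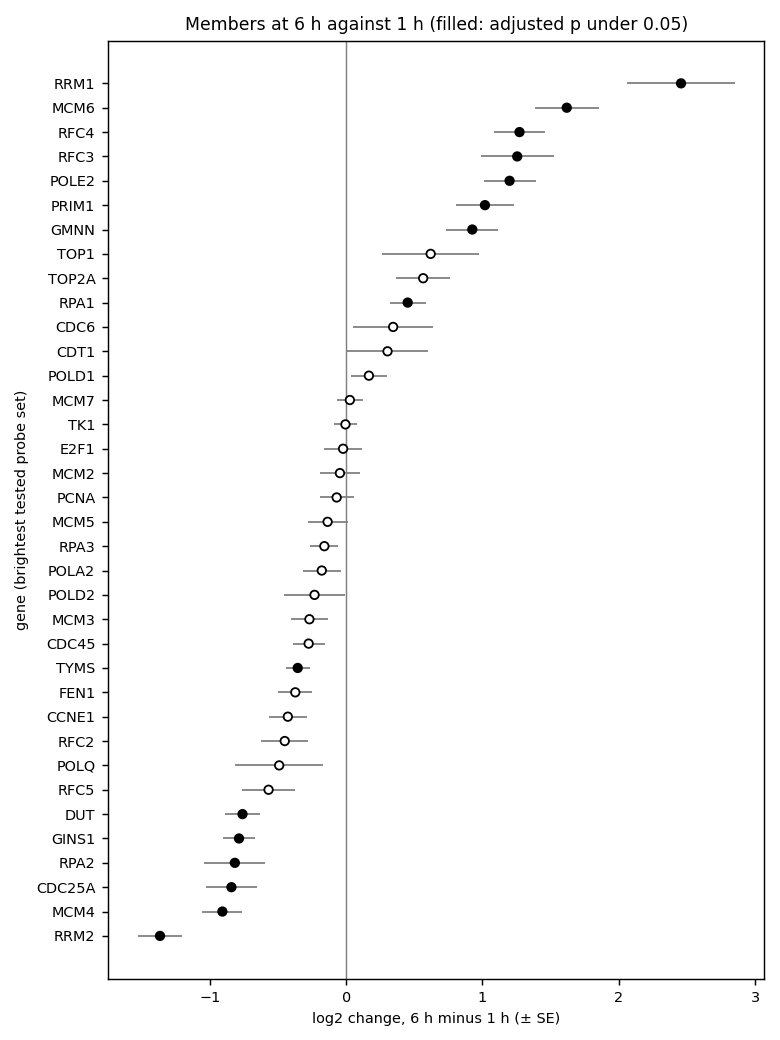
Change at 6 h against 1 h (log2) for the brightest tested probe set of each of 36 member genes; each point is the difference of the means of 2 arrays and each bar its SE from limma, and filled points are called genes. RRM1 lies at 2.46 at one end and RRM2 at -1.37 at the other.

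Because many of these genes are E2F targets, the promoter windows of the genes at the ends of the 6 h changes are shown, with matches to short words in capitals. RefSeq windows of GRCh38.p14, running from 250 bases before to 50 after the gene's start, were held for 39 of the 44 members; MCM4, MCM5, RPA2, RPA3 and CCNE2 had no entry. The words were the E2F words TTTCCCGC, TTTGGCGC, TTTCGCGC and TTTGCCGC, the CCAAT box CCAAT, the E box CACGTG and the TATA word TATAAA, each on both strands, with overlapping matches all counted. Among members whose times differed in the F test, RRM2 and POLQ had the lowest and RRM1 and PRIM1 the highest change at 6 h against 0 h. That of RRM1 was 0.19 and not called (adjusted p = 0.77), and PRIM1 was tested through its 6 h arrays alone. MCM6 and GINS1, a gene of each kind of course, were added after their words were seen. The first 270 bases of each window are printed 5′ to 3′ in the gene's direction, so that the start follows the first 250 bases of each line.
RRM2, chr2:10122489-10122758, plus strand: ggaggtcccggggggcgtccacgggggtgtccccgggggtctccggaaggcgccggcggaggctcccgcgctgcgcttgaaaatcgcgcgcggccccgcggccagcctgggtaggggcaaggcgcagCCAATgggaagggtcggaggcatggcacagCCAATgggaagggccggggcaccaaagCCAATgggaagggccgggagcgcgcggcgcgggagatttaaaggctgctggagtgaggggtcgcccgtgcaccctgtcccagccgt
POLQ, chr3:121545969-121546238, minus strand: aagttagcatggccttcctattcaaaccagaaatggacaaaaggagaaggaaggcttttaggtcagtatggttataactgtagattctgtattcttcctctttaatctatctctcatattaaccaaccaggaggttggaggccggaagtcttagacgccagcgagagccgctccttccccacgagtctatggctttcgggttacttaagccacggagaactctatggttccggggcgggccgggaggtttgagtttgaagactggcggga
RRM1, chr11:4094435-4094704, plus strand: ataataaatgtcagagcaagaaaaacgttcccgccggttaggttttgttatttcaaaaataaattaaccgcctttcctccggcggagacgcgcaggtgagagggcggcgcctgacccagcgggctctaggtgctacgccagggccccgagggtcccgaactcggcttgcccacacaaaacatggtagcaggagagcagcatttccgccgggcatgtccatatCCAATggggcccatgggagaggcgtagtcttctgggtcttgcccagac
PRIM1, chr12:56752304-56752573, minus strand: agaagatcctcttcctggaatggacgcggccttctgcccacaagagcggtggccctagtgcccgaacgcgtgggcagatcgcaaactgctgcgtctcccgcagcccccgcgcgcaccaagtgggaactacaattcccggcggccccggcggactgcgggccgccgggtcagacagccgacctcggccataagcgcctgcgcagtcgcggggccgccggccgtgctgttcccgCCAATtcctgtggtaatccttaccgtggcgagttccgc
MCM6, chr2:135876424-135876693, minus strand: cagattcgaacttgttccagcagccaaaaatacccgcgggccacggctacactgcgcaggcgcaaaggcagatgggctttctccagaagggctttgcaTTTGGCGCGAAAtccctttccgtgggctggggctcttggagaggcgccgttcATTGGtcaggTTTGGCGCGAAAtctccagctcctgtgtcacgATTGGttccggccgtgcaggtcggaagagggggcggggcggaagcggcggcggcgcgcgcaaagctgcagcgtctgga
GINS1, chr20:25407423-25407692, plus strand: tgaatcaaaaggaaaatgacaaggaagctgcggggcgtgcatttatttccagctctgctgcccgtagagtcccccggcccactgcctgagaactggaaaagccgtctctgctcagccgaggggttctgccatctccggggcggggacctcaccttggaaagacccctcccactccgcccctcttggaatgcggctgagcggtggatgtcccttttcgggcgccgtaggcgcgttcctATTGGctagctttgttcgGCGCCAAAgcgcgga

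In these windows, MCM6 held 4 E2F word matches, in 2 copies of TTTGGCGCGAAA where a match on each strand overlaps the other, and GINS1 held 1 E2F match just after its start. RRM2 held 3 copies of CCAAT, beginning at -123, -93 and -66 from its start, and no exact E2F word. RRM1 and PRIM1 held 1 CCAAT each, and POLQ held none of the words. An E2F word was found for 19 of 39 members (48.7%), beside 3.99% of 27305 genes in the table and 8.40% of 2392 genes with a tested probe set. CCAAT was found for 23 of 39 members (59.0%), beside 39.7% and 47.0%; the E box for 5 (12.8%), beside 8.78% and 14.8%; and TATAAA for 3 (7.69%), beside 14.0% and 8.07%. Of the genes higher at 6 h than at 1 h, 4 of 8 held an E2F word (GMNN, MCM6, POLE2, RFC3), and of those lower, 4 of the 5 with a window did (CDC25A, DUT, GINS1, TYMS). Genes of both courses thus carried 1 or more of the E2F words, and a difference between the courses was not tested. A match of letters is a description and not a bound site.

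Origin licensing was read for 9 of its 10 genes, and 5 of them fell at some time while 4 (CDT1, MCM2, MCM5, MCM7) had no call. How many of all tested genes fell at some time was not counted. MCM6, a subunit of the replicative helicase ring, had levels of 8.62 and 8.17 at 0 h, 7.39 and 7.22 at 0.5 h, 6.41 and 6.89 at 1 h, 7.49 and 7.07 at 3 h, and 8.10 and 8.45 at 6 h. Both arrays at 0.5 h, 1 h and 3 h lay below both at 0 h, while 6 h overlapped 0 h. The change at 1 h was -1.74 (SE 0.23, adjusted p = 0.00146), and the level at 6 h exceeded that at 1 h by 1.62 (SE 0.23, adjusted p = 0.00242); both were called in every alternative run. The changes of -1.09 at 0.5 h (adjusted p = 0.0168) and -1.12 at 3 h (adjusted p = 0.0101) were lost without 0 h replicate 1 (adjusted p = 0.125 and 0.0805), without either 0.5 h array (0.0529 and 0.112) and without 3 h replicate 2 (0.0684).

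MCM4, another subunit of the ring, took a later course. Its levels were 8.75 and 8.56 at 0 h, 8.66 and 8.56 at 0.5 h, 8.63 and 8.27 at 1 h, 7.95 and 7.73 at 3 h, and 7.55 and 7.53 at 6 h. The arrays of 0.5 h overlapped those of 0 h, and those of 3 h and 6 h lay below every earlier array. MCM4 was called lower at 3 h, with a change of -0.82 (SE 0.15, adjusted p = 0.00613), and at 6 h, with -1.11 (SE 0.15, adjusted p = 0.00236). The difference of 6 h from 1 h was -0.91 (adjusted p = 0.00389). The 3 other tested probe sets of MCM4 were also lower at 6 h, with changes of -0.75, -1.01 and -0.61. The dimmest was not called there with equal array medians (-0.37, adjusted p = 0.0894). At 3 h the changes of these 3, in the same order, were -0.45, -0.79 and -0.18 (adjusted p = 0.0683, 0.00959 and 0.348). The 4 probe sets of the gene were thus all called lower at 6 h, while at 3 h the brightest and 1 of the 3 others were. The 3 h call of the brightest was lost without 0 h replicate 1 (adjusted p = 0.0525).

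GMNN encodes geminin, which binds CDT1 and blocks a second round of licensing. Its levels were 8.28 and 7.87 at 0 h, 7.00 and 6.86 at 0.5 h, 6.73 and 6.38 at 1 h, 7.29 and 6.90 at 3 h, and 7.44 and 7.52 at 6 h. Every later array lay below both 0 h arrays. GMNN fell, with changes of -1.14, -1.52 and -0.98 at 0.5 h, 1 h and 3 h (SE 0.19, adjusted p = 0.00807, 0.00121 and 0.00801), and its change of -0.59 at 6 h was not called (adjusted p = 0.0534). Without 0 h replicate 1 the calls at 0.5 h and 3 h were lost (adjusted p = 0.0675 and 0.0635), as they were without 0.5 h replicate 2 (0.0649) and 3 h replicate 2 (0.0542). The difference of 6 h from 1 h was not called on leaving out replicate 2 of 1 h or of 6 h (adjusted p = 0.0672 and 0.0624).

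CDC6, the loader that recruits the ring to ORC, was read by 2 tested probe sets of nearly equal brightness. The first had 5.98 and 5.55 at 0 h, 5.52 and 4.91 at 0.5 h, 4.86 and 4.45 at 1 h, 4.60 and 4.34 at 3 h, and 4.64 and 5.35 at 6 h. The second had 5.84 and 5.51 at 0 h, 5.64 and 5.27 at 0.5 h, 4.88 and 5.03 at 1 h, 3.87 and 3.56 at 3 h, and 4.19 and 4.75 at 6 h. Both were lowest at 3 h, at which the changes were -1.30 (SE 0.30, adjusted p = 0.0144) and -1.96 (SE 0.22, adjusted p = 0.00198), and at 6 h the second alone was called, with a change of -1.20 (adjusted p = 0.00736). With values under 5 set to 5, the 3 h changes were -0.76 and -0.67. Leaving out 0 h replicate 1 or 3 h replicate 2 ended the first probe set's 3 h call (adjusted p = 0.105 and 0.0833), and the second's 6 h call also ended without 0 h replicate 1 (0.0603).

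Changes of the other licensing genes were smaller or not called. MCM3, of the same ring, had changes of -0.65 at 3 h and -0.69 at 6 h (SE 0.13, adjusted p = 0.00949 and 0.00866), calls that were lost without 0 h replicate 1 (adjusted p = 0.0655 and 0.0596), 3 h replicate 2 (0.0589) and 6 h replicate 1 (0.053); its call at 1 h (a change of -0.42) did not hold with array medians made equal (-0.14, adjusted p = 0.357). MCM2, MCM5 and MCM7, the remaining ring subunits, had no call, with changes of -0.26, -0.11 and 0.10 at 6 h (SE 0.15, 0.15 and 0.097). CDT1, the partner of CDC6 in loading, had a change of 0.64 at 6 h (SE 0.30, adjusted p = 0.15). Within the MCM ring the data therefore held 1 gene that dipped and returned, 2 that were lower at 6 h and 3 without a call.

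**Figure D2:**
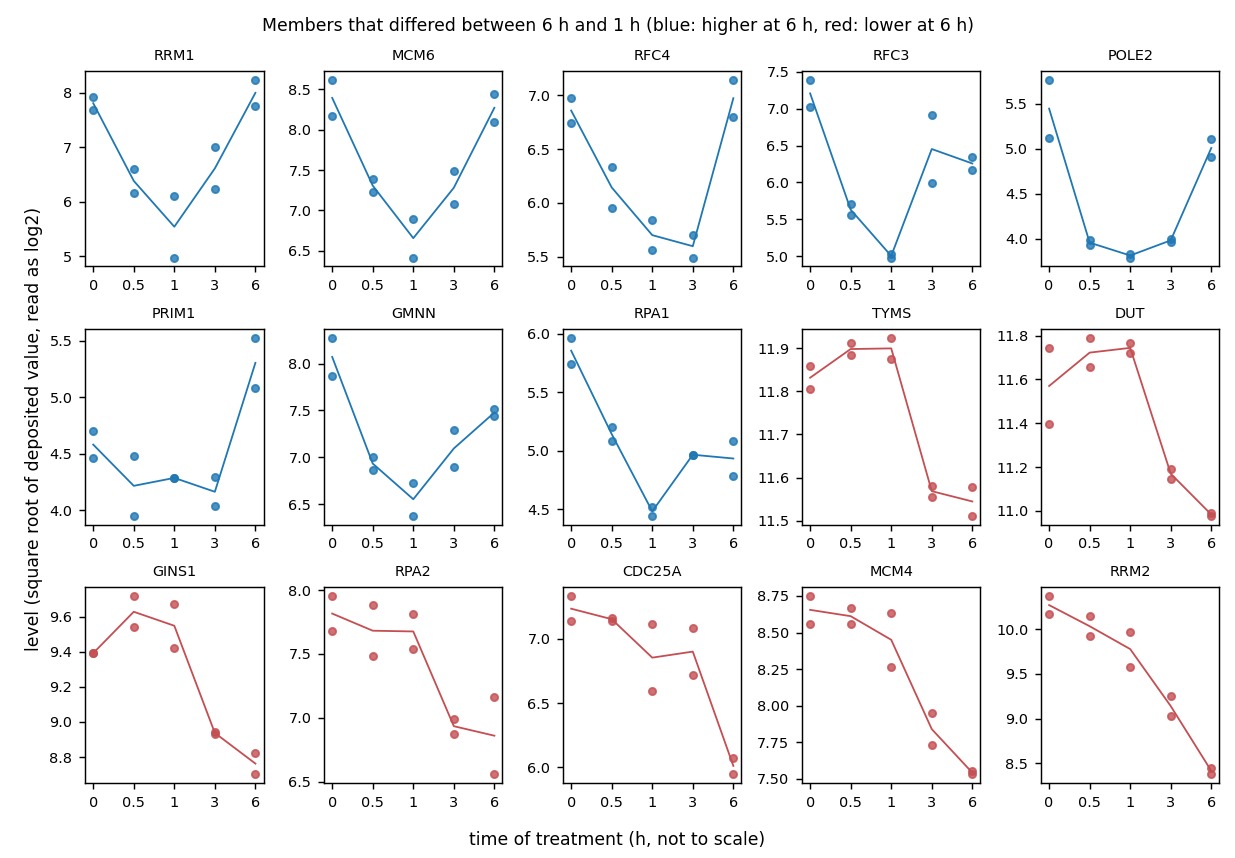
Level (log2, square root of the deposited score) against time in hours for the 15 member genes called between 6 h and 1 h, blue where higher and red where lower at 6 h; points are the 2 arrays of each time, lines join their means, times are evenly spaced, and each panel has its own vertical scale. RRM1 and MCM6 were lowest at 1 h and overlapped their 0 h level at 6 h, and RRM2 and MCM4 were lowest at 6 h.

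Helicase activation was read through GINS1 and CDC45. GINS1, a subunit of the complex that joins the MCM ring and CDC45, had levels of 9.39 and 9.39 at 0 h, 9.72 and 9.54 at 0.5 h, 9.67 and 9.42 at 1 h, 8.94 and 8.93 at 3 h, and 8.70 and 8.82 at 6 h. The arrays of 0.5 h and 1 h were at or above those of 0 h, and those of 3 h and 6 h were below all others. Its change of -0.63 at 6 h (SE 0.12, adjusted p = 0.00762) held without any 1 array, and that of 6 h from 1 h was -0.79 (adjusted p = 0.00288). The change of -0.46 at 3 h was not called once array medians were made equal (-0.14, adjusted p = 0.359). CDC45 had 6.69 and 6.70 at 0 h, 6.90 and 6.70 at 0.5 h, 6.82 and 6.75 at 1 h, 6.60 and 6.39 at 3 h, and 6.56 and 6.45 at 6 h, and none of its changes was called (adjusted p of the F test = 0.138). MCM10 stayed below the level for testing, at 2.90 to 4.61.

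The clamp loader subunits RFC3 and RFC4 were among the members higher at 6 h than at 1 h. RFC3 had 7.40 and 7.02 at 0 h, 5.71 and 5.55 at 0.5 h, 5.02 and 4.98 at 1 h, 6.91 and 6.00 at 3 h, and 6.17 and 6.34 at 6 h. Every later array lay below both 0 h arrays, and both 1 h arrays lay below all others. The change of RFC3 at 1 h was -2.21 (SE 0.27, adjusted p = 0.00113). That of its second, dimmer probe set, which was at 5 or more at 0 h alone and so was tested through that time, was -2.29 (adjusted p = 0.00185), or -0.44 with values under 5 set to 5. The call of the 0.5 h change of -1.58 rested on 0 h replicate 1 and 0.5 h replicate 2 (adjusted p = 0.0728 and 0.0649 without each). The call of the 6 h change of -0.95 ended when any 1 array of 0 h, 0.5 h, 1 h or 6 h was left out (0.0535 to 0.191), and that of the difference of 6 h from 1 h ended without either 1 h array or 6 h replicate 2 (0.0621 to 0.0714).

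RFC4 had 6.98 and 6.74 at 0 h, 6.33 and 5.96 at 0.5 h, 5.84 and 5.56 at 1 h, 5.70 and 5.49 at 3 h, and 6.80 and 7.15 at 6 h. The arrays of 0.5 h, 1 h and 3 h lay below both of 0 h, and those of 6 h overlapped them. RFC4 fell, with changes of -1.16 at 1 h and -1.26 at 3 h (SE 0.19, adjusted p = 0.00277 and 0.00334) that both held without any 1 array. The level at 6 h exceeded that at 1 h by 1.27 (adjusted p = 0.00249), called in every alternative in which the probe set was tested. The 0.5 h change of -0.71 was lost without either 0 h array or 0.5 h replicate 2 (adjusted p = 0.0613 to 0.208).

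RFC5, another loader subunit, gave 2 different courses on its 2 tested probe sets. The brighter had 6.10 and 6.09 at 0 h, 7.03 and 6.47 at 0.5 h, 6.44 and 6.06 at 1 h, 5.54 and 5.73 at 3 h, and 5.62 and 5.73 at 6 h. None of its single comparisons was called, although its times differed by the F test (adjusted p = 0.0122). The other had 6.51 and 6.25 at 0 h, 5.74 and 5.58 at 0.5 h, 5.08 and 5.11 at 1 h, 5.62 and 5.42 at 3 h, and 5.56 and 5.92 at 6 h. Its changes of -0.72, -1.29, -0.86 and -0.64 were all called (SE 0.15, adjusted p = 0.0166, 0.00113, 0.00603 and 0.0187). Its level at 6 h exceeded that at 1 h by 0.65 (adjusted p = 0.0194). Of these calls the one at 1 h alone held without any 1 array, and that at 6 h was lost with equal array medians. All later arrays of the second lay below both of its 0 h arrays, while the 0.5 h arrays of the first lay above its own. The difference between both probe sets within an array changed by 1.37 at 0.5 h and 1.43 at 1 h (SE 0.22, adjusted p = 0.0103 and 0.00569), so the direction for RFC5 depends on the probe set.

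The clamp itself, PCNA, was among the brightest members at 11.87 ± 0.01 (SD, n = 2) at 0 h. PCNA was called lower at all 4 times, with changes of -0.44, -0.44, -0.48 and -0.51 (SE 0.13), and none of the 4 calls held with equal array medians (changes of -0.31, -0.16, -0.17 and -0.26, adjusted p = 0.119 to 0.329). Each was also lost without either 0 h array (adjusted p = 0.0674 to 0.193). RFC2 was called on its brighter probe set at 3 h alone, with a change of -0.54 that was -0.23 with equal array medians (adjusted p = 0.348). Its second probe set changed by -0.12 at 3 h (adjusted p = 0.497). That probe set was called at 6 h against 1 h alone (-0.38, adjusted p = 0.0477), a call lost with equal array medians. RFC1, the largest loader subunit, stayed at 2.40 to 2.76 on its 3 probe sets and was not tested.

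Of 9 polymerase and primase genes, 6 were tested and 4 of them had a call, while the share of all tested genes with any call was not counted. POLE2, the second subunit of the leading strand polymerase epsilon, had 5.77 and 5.12 at 0 h, 3.93 and 3.98 at 0.5 h, 3.79 and 3.83 at 1 h, 3.96 and 4.00 at 3 h, and 4.91 and 5.11 at 6 h. The arrays of 0.5 h, 1 h and 3 h lay well below both of 0 h, and those of 6 h lay between. Both 0 h arrays and 6 h replicate 2 alone reached 5, so the high 0 h level sufficed for the probe set to be tested. POLE2 fell, with changes of -1.49, -1.64 and -1.47 at 0.5 h, 1 h and 3 h (SE 0.19, adjusted p = 0.004, 0.00105 and 0.00247), and 6 h exceeded 1 h by 1.20 (adjusted p = 0.00359). These calls held without any 1 array and were lost with values under 5 set to 5 (changes of -0.45, -0.45, -0.45 and 0.05, adjusted p = 0.11 to 0.904), since most arrays lay under that level.

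POLQ, the polymerase of microhomology-mediated end joining, had 5.62 and 5.38 at 0 h, 5.22 and 4.88 at 0.5 h, 4.76 and 4.10 at 1 h, 2.90 and 2.61 at 3 h, and 3.47 and 4.40 at 6 h. Its change of -2.74 at 3 h (SE 0.32, adjusted p = 0.0021) rests on 3 h levels far under 5, and was -0.50 with values under 5 set to 5. All arrays after 0 h lay below both 0 h arrays. Both 0 h arrays and 0.5 h replicate 1 alone reached 5, so here too the 0 h level sufficed for testing. The 3 h call held without any 1 array. The call at 1 h (-1.07) was lost without any 1 of the arrays of 0 h, 0.5 h and 3 h and without 1 h replicate 2 (adjusted p = 0.0515 to 0.224), and that at 6 h (-1.56, adjusted p = 0.0107) without 0 h replicate 1 (0.0758) or 6 h replicate 1 (0.0553).

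PRIM1, the catalytic subunit of primase, was the member called higher at 6 h than at 0 h. It had 4.70 and 4.46 at 0 h, 4.48 and 3.95 at 0.5 h, 4.28 and 4.28 at 1 h, 4.29 and 4.03 at 3 h, and 5.08 and 5.52 at 6 h. Both 6 h arrays lay above all others, and they alone reached 5, so the probe set was tested through the time at which it was high. The change at 6 h was 0.72 (SE 0.21, adjusted p = 0.0379), which was lost without either 0 h array (adjusted p = 0.0936 and 0.16), either 1 h array (0.0611) or 6 h replicate 2 (0.177) and with values under 5 set to 5 (0.30, adjusted p = 0.138).

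Other polymerase subunits moved little. POLA2, the second subunit of polymerase alpha, was called at 3 h with a change of -0.44 (SE 0.14, adjusted p = 0.0485) that was -0.13 with equal array medians (adjusted p = 0.494). POLD1 and POLD2, the catalytic and second subunits of polymerase delta, had no call, with changes of 0.05 and -0.02 at 6 h (SE 0.13 and 0.22). POLA1, POLE and PRIM2 were not tested, with levels of 2.60 to 2.65, 3.85 to 4.13 and 3.66 to 4.44 over the arrays.

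The 3 subunits of RPA, the protein that coats single-stranded DNA, had 3 courses. RPA1, the largest subunit, had 5.75 and 5.97 at 0 h, 5.08 and 5.20 at 0.5 h, 4.52 and 4.45 at 1 h, 4.97 and 4.97 at 3 h, and 4.78 and 5.09 at 6 h. All later arrays lay below both 0 h arrays, with the lowest at 1 h. RPA1 fell at all 4 later times, with changes of -0.71, -1.37, -0.89 and -0.92 (SE 0.13, adjusted p = 0.0101, 0.000762, 0.00337 and 0.00297) on the brighter probe set. The dimmer one was tested through its high 0 h level alone, so its lower calls add no support. The calls of the brighter probe set at 1 h, 3 h and 6 h held without any 1 array; that at 0.5 h ended on leaving out 0 h replicate 2 or either 0.5 h array (adjusted p = 0.0504 to 0.058), and the difference of 0.45 between 6 h and 1 h was not called with equal array medians (0.41, adjusted p = 0.0526), with values under 5 set to 5 (0.044, adjusted p = 0.821) or on leaving out any 1 of 7 arrays (0.0534 to 0.21).

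RPA2 had 7.95 and 7.68 at 0 h, 7.88 and 7.48 at 0.5 h, 7.82 and 7.54 at 1 h, 6.99 and 6.88 at 3 h, and 6.56 and 7.16 at 6 h. The first 3 times overlapped, and the arrays of 3 h and 6 h lay below all of them. RPA2 fell, with changes of -0.88 at 3 h and -0.96 at 6 h (SE 0.22, adjusted p = 0.0215 and 0.0167), calls lost without 0 h replicate 1 (adjusted p = 0.134 and 0.111) and without either 3 h array (0.0502 and 0.104) or 6 h replicate 1 (0.0934). RPA3 had 9.10 and 9.04 at 0 h, 9.06 and 9.00 at 0.5 h, 9.03 and 9.00 at 1 h, 9.01 and 8.85 at 3 h, and 8.92 and 8.79 at 6 h. Its arrays spanned a narrow range and no change was called, the lowest being -0.21 at 6 h (SE 0.10, adjusted p = 0.162).

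Okazaki fragment joining was read through FEN1, the nuclease that trims the flaps between fragments. FEN1 had 9.24 and 9.44 at 0 h, 9.49 and 9.52 at 0.5 h, 9.37 and 9.19 at 1 h, 9.03 and 8.85 at 3 h, and 8.98 and 8.82 at 6 h. The arrays of 3 h and 6 h lay below all earlier ones. The change at 6 h was -0.44 (SE 0.12, adjusted p = 0.0343) and that at 3 h was -0.40; with equal array medians they were -0.19 and -0.09 and not called (adjusted p = 0.311 and 0.622). The change of its second probe set at 6 h was -0.68 (adjusted p = 0.00588), and that call held without any 1 array and with equal array medians. LIG1, the ligase that seals the fragments, stayed at 3.12 to 3.50 and was not tested.

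Nucleotide supply held the highest and the lowest change between 6 h and 1 h of the whole set, in the 2 subunits of ribonucleotide reductase. RRM1, the large subunit with the catalytic site, had 7.69 and 7.92 at 0 h, 6.61 and 6.16 at 0.5 h, 6.11 and 4.97 at 1 h, 7.00 and 6.22 at 3 h, and 7.75 and 8.24 at 6 h. The arrays of 0.5 h, 1 h and 3 h lay below both of 0 h, and those of 6 h overlapped them. The change of RRM1 at 1 h was -2.27 (SE 0.39, adjusted p = 0.00396), and 6 h exceeded 1 h by 2.46 (SE 0.39, adjusted p = 0.00368); both held without any 1 array and with equal array medians. The 0.5 h change of -1.43 was lost without either 0 h array (adjusted p = 0.149 and 0.152), either 0.5 h array (0.0834 and 0.225) or either 6 h array (0.0551).

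RRM2, the small subunit that carries the radical and limits the enzyme in S phase, was read by 2 bright probe sets. The first had 10.37 and 10.17 at 0 h, 10.15 and 9.92 at 0.5 h, 9.97 and 9.58 at 1 h, 9.26 and 9.02 at 3 h, and 8.38 and 8.45 at 6 h. The second had 9.90 and 9.70 at 0 h, 9.42 and 9.40 at 0.5 h, 9.11 and 9.12 at 1 h, 9.19 and 8.84 at 3 h, and 9.11 and 9.19 at 6 h. On the first the mean of each time lay below that of the time before, and on the second the arrays of 1 h, 3 h and 6 h lay together, below those of 0 h. Both called RRM2 lower at 3 h (-1.13 and -0.79) and at 6 h (-1.86, SE 0.16, adjusted p = 0.000623, and -0.65, SE 0.13, adjusted p = 0.0106). Between 6 h and 1 h the first changed by -1.37 (adjusted p = 0.00108), called in every alternative run, whereas the second changed by 0.04 (adjusted p = 0.892). The difference between them within an array changed by -1.40 at 6 h against 1 h (SE 0.16, adjusted p = 0.00387), so the late fall of RRM2 rests on 1 of its 2 probe sets. Leaving out replicate 1 of 0 h or of 6 h ended the second's 6 h call (adjusted p = 0.0776 and 0.0619).

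**Figure D3:**
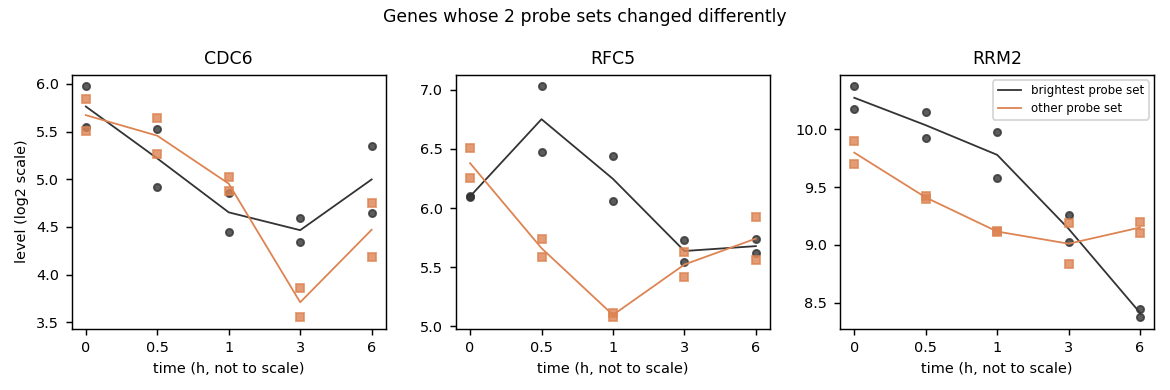
Levels (log2) over time in hours of the tested probe sets of CDC6, RFC5 and RRM2, the 3 members whose probe sets differed in course; points are the 2 arrays of each time and lines join the means. For RFC5 the difference between probe sets changed by 1.43 at 1 h, and for RRM2 by -1.21 at 6 h, both against 0 h.

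Of 14 pairs of probe sets in 11 members, 3 differed in course by the F test, those of CDC6 (adjusted p = 0.0239), RFC5 (0.0107) and RRM2 (0.00597), beside 8.32% of 865 such pairs over all genes. Which transcripts each probe set reads was not analysed here.

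DUT, which removes dUTP from the nucleotide pool, had 11.40 and 11.75 at 0 h, 11.79 and 11.65 at 0.5 h, 11.77 and 11.72 at 1 h, 11.19 and 11.15 at 3 h, and 10.98 and 10.99 at 6 h. The first 3 times overlapped and the arrays of 3 h and 6 h lay below them. The difference of 6 h from 1 h was -0.76 (SE 0.13, adjusted p = 0.0046), called in every alternative run. Against 0 h the change at 6 h was -0.59 (adjusted p = 0.0131), or -0.34 with equal array medians (adjusted p = 0.1), whereas that of its second probe set was -0.87 (adjusted p = 0.00432) and held both with equal array medians and without any 1 array. TYMS, thymidylate synthase, had a change of -0.29 at 6 h (SE 0.089, adjusted p = 0.0485), a call that ended with array medians made equal (-0.04, adjusted p = 0.831). TK1, the salvage thymidine kinase, stayed between 5.97 and 6.03 on all 10 arrays, with no call. Its replicate SDs were 0.005 to 0.023, beside a median pooled replicate SD of 0.17 over the tested member probe sets. Whether so flat a probe set reads TK1 RNA was not tested.

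The topoisomerases relieve the winding ahead of the fork. TOP1 had 7.93 and 7.86 at 0 h, 6.68 and 6.42 at 0.5 h, 5.94 and 5.68 at 1 h, 5.98 and 4.96 at 3 h, and 6.00 and 6.86 at 6 h. Every later array lay at least as low as 6.86, against 7.86 for the lower 0 h array. TOP1 fell, with changes of -2.08 at 1 h and -2.42 at 3 h (SE 0.35, adjusted p = 0.00367 and 0.00332), calls that held without any 1 array and with equal array medians. Those at 0.5 h (-1.34) and 6 h (-1.46) were lost without either 0 h array (adjusted p = 0.0674 to 0.171), either 0.5 h or 1 h array at 0.5 h (0.0594 to 0.188) and 6 h replicate 1 at 6 h (0.117). TOP2A had 5.75 and 5.34 at 0 h, 4.98 and 5.03 at 0.5 h, 5.44 and 4.90 at 1 h, 5.11 and 4.94 at 3 h, and 5.65 and 5.82 at 6 h. Its groups at 1 h and 6 h overlapped 0 h and no single comparison was called, although its times differed narrowly by the F test (adjusted p = 0.04995). A second probe set of TOP2A reached 5 on a single array, with 6.25 on 6 h replicate 2 and 4.64 on 6 h replicate 1, and so fell just outside the level for testing, while that of PRIM1 was just inside it.

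Among the genes of S-phase entry, CDC25A, the phosphatase that activates CDK2, had 7.14 and 7.33 at 0 h, 7.16 and 7.14 at 0.5 h, 7.12 and 6.59 at 1 h, 7.08 and 6.72 at 3 h, and 6.07 and 5.95 at 6 h. The 2 arrays of 6 h stood below all others. The change of CDC25A at 6 h was -1.22 (SE 0.19, adjusted p = 0.00385), which held without any 1 array, and its difference from 1 h was -0.84 (adjusted p = 0.0159), a call that ended on leaving out 1 h replicate 1 (0.0847) or 6 h replicate 2 (0.0834). CCNE1, a cyclin partner of CDK2, had 4.81 and 5.16 at 0 h, 5.35 and 5.50 at 0.5 h, 4.82 and 4.92 at 1 h, 4.64 and 4.85 at 3 h, and 4.46 and 4.42 at 6 h. CCNE1 was highest at 0.5 h and lowest at 6 h, where the change of -0.55 (adjusted p = 0.0235) was not called with array medians made equal (-0.30, adjusted p = 0.206) or with values under 5 set to 5 (-0.082, adjusted p = 0.557). E2F1, the transcription factor, had 5.06 and 5.16 at 0 h, 5.25 and 5.30 at 0.5 h, 5.28 and 5.29 at 1 h, 5.55 and 5.12 at 3 h, and 5.25 and 5.27 at 6 h, with no call (adjusted p of the F test = 0.665). CCNE2 (2.56 to 4.45) was not tested.

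**Figure D4:**
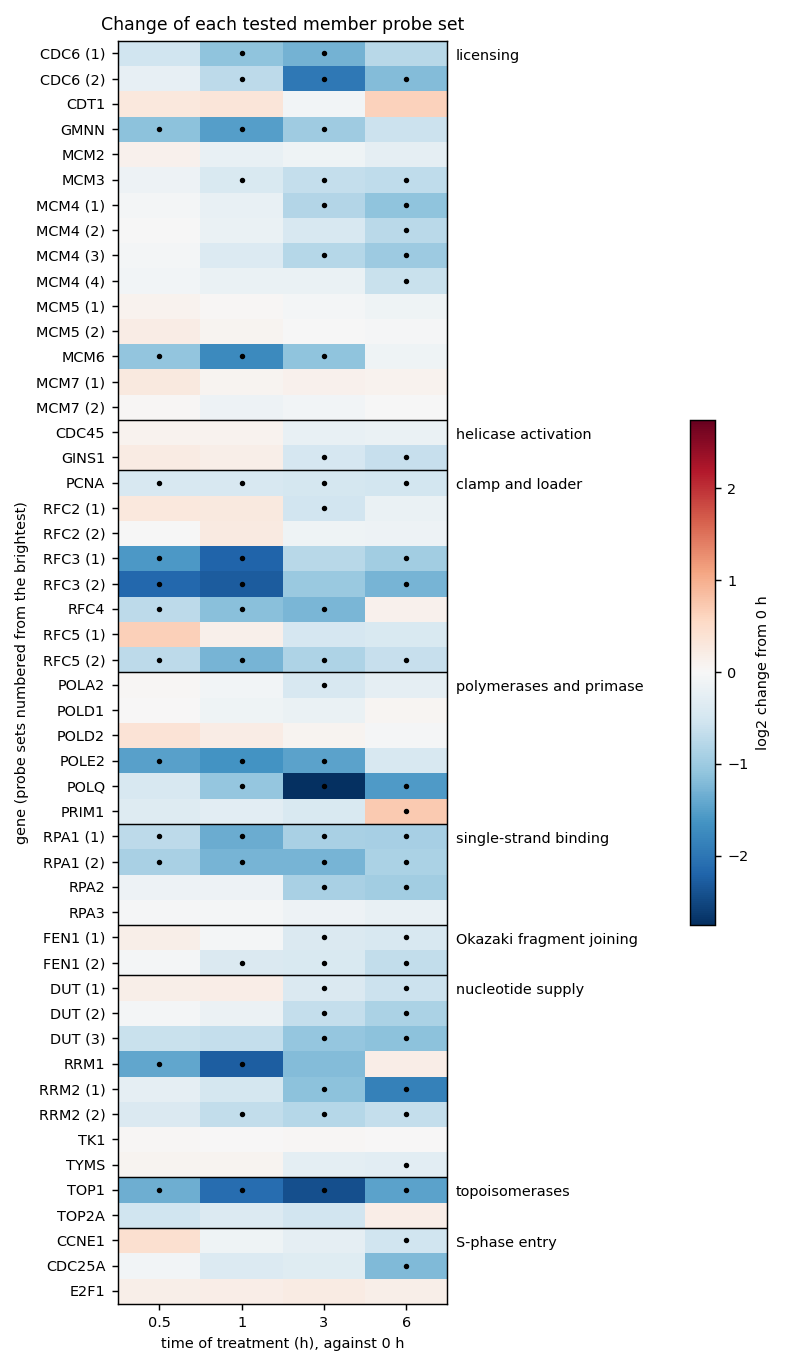
Change against 0 h (log2, colour) at 0.5 h, 1 h, 3 h and 6 h for the 50 tested member probe sets, grouped by role and numbered from the brightest within a gene; blue is lower, red is higher, and a dot marks a called change. Blue cells with dots gather at 3 h and 6 h, with 26 probe sets called lower at each, and PRIM1 at 6 h is the dotted red cell.

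Over all roles, by the brightest probe set, 24 of the 36 tested genes were called at 1 or more times against 0 h, and 12 had no call in any of the 5 comparisons. The share of all 2819 genes with such calls was not counted, so these counts are no result about the members. RFC5 is among those 12, although its other tested probe set was called lower at all 4 times. PCNA, RPA1 and TOP1 were called at all 4 times, and none of the calls of PCNA held with equal array medians. By role, genes called lower at 6 h numbered 2 of 9 in licensing, 1 of 2 in helicase activation, 2 of 5 for clamp and loader, 1 of 6 for polymerases and primase, 2 of 3 for single-strand binding, 1 of 1 in Okazaki fragment joining, 3 of 5 in nucleotide supply, 1 of 2 topoisomerases and 2 of 3 in S-phase entry, beside 20.4% of all 2819 genes tested, so 2 of 9 and 1 of 6 are near that share. Of 36 probe sets that were at 5 or more on all 10 arrays, 5, 8, 18 and 17 were lower at the 4 times, beside 12.3%, 20.4%, 23.8% and 21% of the 3468 probe sets with that property, and 0 were higher, beside 1.87%, 4.67%, 2.71% and 3.81%. The members' shares at 0.5 h and 1 h, 13.9% and 22.2%, were close to those of all such probe sets, and at 3 h and 6 h they were 50% and 47.2%.

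Neighbouring genes of replication outside the set were read from 5 lists of 102 genes. Counted the same way, by the brightest probe set, 13.8%, 22.6%, 25.8% and 20.4% of all 2819 genes tested were lower at the 4 times, and 1.7%, 4.04%, 2.34% and 4.4% were higher. Of 8 tested fork and origin genes, 1, 2, 2 and 3 were lower and 0 higher at 0.5 h, 1 h, 3 h and 6 h, near the shares of all genes at the first 3 times. POLE3, a small subunit of polymerase epsilon, had a change of -1.15 at 6 h (SE 0.17, adjusted p = 0.00324), ORC6, of the origin complex, -0.64 (adjusted p = 0.0217), and GINS3, of the GINS complex, -0.79 (adjusted p = 0.0168). GINS3 and POLE3 were also lower at 6 h than at 1 h (changes of -0.95 and -1.18), as GINS1 was.

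Of 11 tested genes of chromatin assembly at the fork, 5, 7, 8 and 4 were lower and 0, 0, 0 and 1 higher at the 4 times, and 4 were higher at 6 h than at 1 h, where 12.1% of all genes were. The shares of all genes lower were 13.8%, 22.6%, 25.8% and 20.4%. HAT1, the acetyltransferase of new histone H4, had a change of -1.50 at 1 h (SE 0.16, adjusted p = 0.00084) and of 0.73 at 6 h (adjusted p = 0.0141), both called. ASF1A, a histone chaperone, changed by -2.00 at 1 h and -0.35 at 6 h (SE 0.22, adjusted p = 0.00084 and 0.275). NASP, a chaperone of linker and H3 histones, had changes of -1.17 at 1 h and -0.66 at 6 h (adjusted p = 0.000866 and 0.00888). These 3 were all above their 1 h level at 6 h, and HAT1 and ASF1A lay under 5 on both 1 h arrays.

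Of 11 tested nucleotide pool genes outside the set, 5, 5, 6 and 5 were lower, beside 13.8%, 22.6%, 25.8% and 20.4% of all genes, and 0 higher. PAICS and ATIC, enzymes of purine synthesis, had changes of -1.83 and -1.49 at 1 h (adjusted p = 0.0008 and 0.00121) and of -0.88 and -0.81 at 6 h, all called. CTPS1, which makes CTP, had a change of -1.70 at 6 h (SE 0.20, adjusted p = 0.00156) and differed from 1 h by -1.13. PAICS and ATIC were called higher at 6 h than at 1 h, and CTPS1 lower.

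Of 8 tested genes of checkpoint and repair, 2, 4, 5 and 2 were lower and 0 higher, and 2 of 8 at 6 h is near the 20.4% of all genes. XRCC5, the larger Ku subunit, changed by -2.03 at 1 h and -0.05 at 6 h (SE 0.31, adjusted p = 0.00222 and 0.942), while XRCC6, the smaller Ku subunit, had changes of -0.48 and -0.59 (adjusted p = 0.0218 and 0.0118). PARP1, a sensor of strand breaks, had a change of -0.77 at 1 h (adjusted p = 0.00352). Of 10 tested genes of the E2F and RB network, 3, 5, 3 and 2 were lower and 1, 0, 0 and 0 higher, near the 25.8% and 20.4% of all genes at 3 h and 6 h. RB1, the repressor of E2F, changed by -1.88 at 0.5 h (SE 0.28, adjusted p = 0.00566), E2F3, an activator E2F, by -1.18 at 1 h (adjusted p = 0.00143) and CDKN1B, an inhibitor of CDK2, by -0.99 at 1 h (adjusted p = 0.0043). At 6 h the changes were -0.64 for RB1 (adjusted p = 0.132), -1.04 for E2F3 (adjusted p = 0.00356) and -0.17 for CDKN1B (adjusted p = 0.533). The one gene called higher was CDK4, at 0.5 h (0.43, adjusted p = 0.036), named after its values were seen.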

How the data were processed

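Total RNA of MOLT-4 cells was hybridised to Affymetrix arrays of 22283 probe sets, with 2 arrays at each of 5 times. The deposited values are GCRMA scores, made by the authors with GCRMA, per the submitters' processing notes; as usually run, that method corrects background from probe sequence, applies quantile normalization and summarises each probe set. Its version, the scale and any later step are not given in the sources used here. Scores ran from 1.25e-05 to 238.1, and their square roots (up to 15.43) were read as log2 levels.

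Without 68 array controls, 4276 of 22215 others (19.2%) passed a score of 25 on at least 2 arrays. Names came from the platform annotation; a single symbol was given for 19071 probe sets (19059 found in the current RefSeq table), several for 1043, of which 2 included a member and were not used, and none for 2169. The model was limma 3.58.1 in R 4.3.3 (lmFit, eBayes) with time as the only factor over all 10 arrays (residual df 5, prior df 3.06, prior SD 0.139), and Benjamini-Hochberg adjustment within each comparison over all tested probe sets. Each later time was compared with 0 h, and 6 h with 1 h. Pairs of probe sets of a gene were compared by the same model on their difference within an array. The pipeline was tested on simulated data with known changes.

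The 44 members, the 5 other gene lists, the markers and the motifs were chosen with earlier results of these data known. All 44 members are accounted for by role. Array values are given for up to 3 members per role with the smallest adjusted p of the F test and for members whose probe sets differ; of each other list, up to 3 called genes with the largest test statistic against 0 h are named. Replicates correlated at 0.991 to 0.994. Deviations of same-numbered arrays from their group means correlated at -0.23 to 0.15, over 0.1 for 2 of 10 pairs of times, so the replicate numbers were not taken to pair the arrays. The number of arrays limits the precision. Alternatives changed the scale, the filter, the scaling between arrays, covariates and the arrays used.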

Additional observations from a re-analysis of the deposited data

Results flagged for a closer look

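The 18S ribosomal RNA probe sets, which are array controls and no member of the set, stood above their 0 h level at each later time, a signal in data outside the main measurement. The mean of the 6 probe sets exceeded that of 0 h by 1.41, 1.65, 2.17 and 2.63 on the log2 scale over the 4 later times, in order (n = 2 arrays each). The levels of the 2 arrays of 0 h, 8.41 and 9.65, lay below all 8 later arrays. Its part in the members' changes was not tested apart from the fit with the 18S level as a covariate.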

How the results depend on the processing

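Counts below are member probe sets called lower in 5 comparisons, the 4 later times in order against 0 h and then 6 h against 1 h; on the deposited scaling they were 12, 18, 26, 26 and 12, with 0, 0, 0, 1 and 9 higher, 35 over all times and 3 differing pairs. With the 18S level as a covariate, lower calls were 0, 2, 0, 0 and 6, higher calls at 6 h 0, and calls over all times 19. Over all tested probe sets, lower calls went from 646, 1036, 1128, 925 and 500 to 8, 84, 0, 0 and 233. Higher calls at 6 h went from 174 to 6 there, and calls over all times from 1694 to 785. With the spike-in level as a covariate, lower calls were 5 (0.5 h), 0 (3 h), 0 (6 h) and 5 (6 h against 1 h). Higher calls were then 0 at 6 h and 5 at 6 h against 1 h, and calls over all times 14. Over all tested probe sets, the same lower calls were 220, 0, 11 and 163, the higher calls 10 and 300, and calls over all times 763. With equal array medians, higher calls were 3, 10, 3 and 3 against 0 h, and with quantile normalization applied again 3, 5, 2 and 2. Over all tested probe sets they were 295, 1389, 987 and 613 with equal medians, and 396, 1112, 903 and 562 with quantile normalization. With no filter, 69 member probe sets were tested and 22215 probe sets share the adjustment. Lower calls of members were then 1 (0.5 h), 13 (3 h), 13 (6 h) and 5 (6 h against 1 h), beside 261, 591, 533 and 201 over all. Higher calls were 1 at 0.5 h, 0 at 6 h and 3 at 6 h against 1 h, beside 46, 143 and 281. Calls over all times were 18, beside 834. With a score of 49 as the filter, which leaves 29 member probe sets, lower calls were 6 at 0.5 h, 10 at 1 h and 17 at 6 h. Higher calls were then 0 at 6 h and 4 at 6 h against 1 h, calls over all times 21 and pairs 1. Over all probe sets passing that filter, the same lower calls were 417, 617 and 664, the higher calls 128 and 349, and calls over all times 1166. With a floor at level 5, higher calls were 1 at 0.5 h, 0 at 6 h and 6 at 6 h against 1 h (91, 197 and 467 over all tested). On log2 of the scores, lower calls at 0.5 h were 7 and higher calls at 6 h 0 (493 and 158 over all tested). The replicate block, which the design does not require, gave 1 higher call at 0.5 h, and 96 of the 104 called changes kept their call under it. Leaving out 1 array gave lower calls of 1 to 12, 11 to 17, 10 to 24, 10 to 26 and 4 to 12, higher calls of 0 to 1, 0 to 1, 0 to 2, 0 to 2 and 4 to 9, calls over all times of 24 to 33 and pairs of 1 to 4. Without 0 h replicate 1, lower calls against 0 h were 2, 11, 10 and 10; without 0.5 h replicate 2 those at 0.5 h were 1, without 3 h replicate 2 those at 3 h were 12, and without 6 h replicate 1 those at 6 h were 10. Of the 104 called changes, 83 held with equal array medians, 86 with quantile normalization, 81 on log2 of the scores, 44 with no filter, 15 with the 18S covariate and 27 with the spike-in covariate. Only the 6 h changes of RFC3 turned sign, to 0.032 and 0.0078 for its 2 probe sets with the 18S covariate, where neither was called. Apart from the fewer probe sets and arrays named, the cause of these shifts was not tested. At least 1 called change each of POLE2, POLQ, PRIM1, RPA1, CDC6, CCNE1 and the dimmest tested probe sets of RFC3 and DUT, with levels under 5 on some arrays, shrank by over 1.5 times with the floor.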
